A study of Mus musculus with 2 samples.

Results

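The genes examined were 9 markers of the quiescent hepatic stellate cell (HSC), taken by their symbols: Lrat, Reln, Tcf21, Lhx2, Hand2, Ngfr, Hgf, Cygb and Ecm1. All 9 were found, each with 1 entry, among the 38288 genes of the deposited tables. The libraries came from adherent hepatic stromal cells of adult male C57/Bl6 mice that had been given carbon tetrachloride (CCl4, a hepatotoxin) for 5 weeks to induce fibrosis. The control library, Foxf1fl/fl, was made from mice with floxed Foxf1 alleles and no Cre. The knockout library, αSMACreER;Foxf1-/-, was made from mice that carry the same floxed alleles and an αSMACreER transgene, a tamoxifen-inducible Cre driven by the α-smooth muscle actin promoter, and tamoxifen was given repeatedly to activate it. Whether the control mice of these pools were given tamoxifen is not stated outright in the sources used here, so an effect of tamoxifen and one of genotype cannot be told apart. That promoter limits deletion to cells that express α-smooth muscle actin, which activated myofibroblasts and smooth muscle do. Liver cells were left to attach to dishes for 2 h, and the attached cells were pooled within each genotype. There was 1 library per genotype, so replicate error is unknown throughout and nothing was tested. Foxf1 itself was not analysed here, so the genotype labels were not checked on the targeted gene.

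HSCs lie between the hepatocytes and the sinusoidal endothelium, take up retinol, esterify it and store it in lipid droplets. After injury they lose these droplets and become collagen-producing myofibroblasts, and many of the genes that mark the resting cell decline on the way. The 9 genes cover different sides of that resting state. Lrat (lecithin retinol acyltransferase) makes the stored retinyl esters. Tcf21 and Hand2 encode basic helix-loop-helix transcription factors and Lhx2 a LIM-homeodomain factor of stellate cells. Ngfr encodes the p75 neurotrophin receptor on the cell surface, and Reln, Hgf and Ecm1 encode secreted proteins, namely reelin, hepatocyte growth factor and extracellular matrix protein 1. Cygb encodes cytoglobin, a stellate cell globin of the cytoplasm.

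Of the 9 genes, 8 had a promoter entry in RefSeq (build GRCm38.p6), and Cygb had none. Promoters are shown for the genes on which the results below turn: Lrat, which defines the storage function, Ecm1, which had the highest level, and Hgf and Reln, whose counting intervals for the difference lay above and below 0. Each runs from 250 bases before the annotated start to 20 bases after it. Capitals mark the forkhead core TGTTTAC, the E-box CAGCTG that basic helix-loop-helix factors bind, TATAAA and the GC box GGGCGG, each searched on both strands, with no overlap between matches in these 4 promoters.
Lrat promoter, chr3:82903955-82904224, minus strand: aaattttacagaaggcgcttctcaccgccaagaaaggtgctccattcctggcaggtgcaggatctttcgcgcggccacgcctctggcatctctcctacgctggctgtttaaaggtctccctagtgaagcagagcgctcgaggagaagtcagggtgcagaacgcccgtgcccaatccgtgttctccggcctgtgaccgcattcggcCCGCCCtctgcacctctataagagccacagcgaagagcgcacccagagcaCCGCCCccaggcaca
Ecm1 promoter, chr3:95739550-95739819, minus strand: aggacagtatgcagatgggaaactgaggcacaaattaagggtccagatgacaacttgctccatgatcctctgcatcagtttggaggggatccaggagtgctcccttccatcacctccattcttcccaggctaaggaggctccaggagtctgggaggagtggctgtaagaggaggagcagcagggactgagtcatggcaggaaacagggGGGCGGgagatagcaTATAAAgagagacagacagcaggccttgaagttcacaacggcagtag
Hgf promoter, chr5:16553245-16553514, plus strand: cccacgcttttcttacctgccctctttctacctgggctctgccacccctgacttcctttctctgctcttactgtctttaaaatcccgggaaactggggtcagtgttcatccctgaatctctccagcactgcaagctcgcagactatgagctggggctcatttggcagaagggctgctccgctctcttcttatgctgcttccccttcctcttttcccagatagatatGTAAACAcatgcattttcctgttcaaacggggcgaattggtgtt
Reln promoter, chr5:22344686-22344955, minus strand: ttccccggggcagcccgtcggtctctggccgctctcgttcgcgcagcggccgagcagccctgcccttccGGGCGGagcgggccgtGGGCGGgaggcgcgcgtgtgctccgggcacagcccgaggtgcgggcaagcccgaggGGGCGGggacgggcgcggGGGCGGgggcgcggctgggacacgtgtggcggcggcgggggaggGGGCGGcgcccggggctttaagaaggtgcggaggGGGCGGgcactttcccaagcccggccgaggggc
The forkhead core was present once, in the Hgf promoter, where it began 24 bases before the start. It was found in 3.65% of 32851 mouse promoter windows of 300 bases, and a second annotated Hgf promoter did not hold it. The Ecm1 promoter held TATAAA 27 bases before the start, and 13.6% of all windows held TATAAA at any position. GC boxes were matched 6 times in the Reln promoter, 2 times in Lrat and 1 time in Ecm1, and 35.7% of all windows had at least 1. The E-box was in none of the 4 promoters shown, was present among the members only in Ngfr, and was in 16.3% of all windows. A match here describes letters and is not a measured binding site.

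Levels are given in FPKM (fragments per kilobase of transcript, normalised to the mapped fragments of the library), which allows genes of different length to be compared within a library. Most of the identity genes were barely detected. In control cells 6 of the 9 genes had an FPKM below 1, and the same 6 were below 1 in knockout cells. The FPKM of the median member was 0.683 and 0.618, whereas the median over all genes above 0 was 3.99 and 3.81. Ecm1 alone held 93.5% of the summed FPKM of the 9 genes in control cells and 93.2% in knockout cells. The label of stellate identity thus rests, for most of these genes, on values under 1 FPKM, and Gfap, another stellate marker, was listed at 0 in both libraries. In RNA of a mixed cell population, fewer cells of a type and less RNA per cell cannot be told apart, and this holds for every gene named here.

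**Figure D1:**
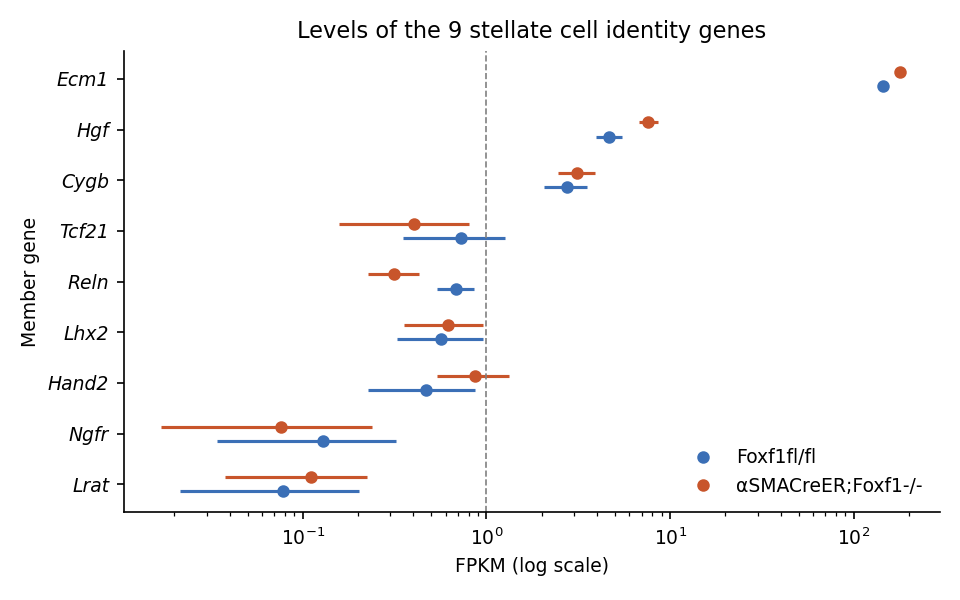
FPKM (log scale) of each of the 9 genes in the Foxf1fl/fl library (blue) and the αSMACreER;Foxf1-/- library (orange). Bars are approximate 95% counting intervals from the estimated reads, the dashed line is an FPKM of 1, and 6 genes have both points to the left of it.

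Numbers of reads are not given in the files used here. They were estimated from the FPKM, the longest annotated transcript and the depth that the spacing of low FPKM values gave, about 9816062 mapped reads for Foxf1fl/fl and 11297893 for αSMACreER;Foxf1-/-. The estimate is rough, since 48.2% and 51.4% of the low values of single-transcript genes lay within 0.1 of a whole read. Counting intervals at 95% follow from it (exact, conditional on the sum of both counts). They cover counting error only and hold nothing of the differences between animals, preparations or pools. The difference between the libraries is given on the log2(FPKM + 0.1) scale as knockout minus control, after the knockout values were divided by 1.018, the median ratio of genes at 1 FPKM or more in both. The counting intervals are for the ratio without the added 0.1. A threshold of 1.5-fold, the factor used in the study, was applied where the mean of both libraries reached 1 FPKM.

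Of the 12839 genes at that level, 1654 (12.9%) were at least 1.5-fold higher in knockout cells and 1694 (13.2%) at least 1.5-fold lower. Every count of listed genes past 1.5-fold below is to be read against these shares. With the libraries scaled to an equal FPKM sum, the shares were 22.2% and 8.73%, and the median of all genes moved to 0.21 on the log2 scale, so directions hold relative to the median ratio. Only 3 of the 9 identity genes, Hgf, Cygb and Ecm1, reached the level. Of these 3, 1 was at least 1.5-fold higher (background 12.9%) and 0 were lower (background 13.2%). The counting interval lay above 0 for 2 of all 9 genes, Hgf and Ecm1, below 0 for 1, Reln, and spanned 0 for the other 6. This interval was above 0 for 30.1% and below 0 for 28.8% of 12670 genes that reached a mean of 1 FPKM and had an annotated length. It was above 0 for 11.2% and below 0 for 6.35% of 5561 genes with a mean from 0.05 to 1, the range that holds the 6 weak members. In that range 1.5-fold was passed upward by 34.8% and downward by 25.2% of 5754 genes, so the 1 weak member that was higher (Hand2) and the 2 that were lower (Reln and Tcf21) are to be read against frequent differences of that size. Over all 38288 genes without a filter the shares were 10.4% and 8.63%, and at 2-fold, where 0 members were higher, they were 4.49% and 6.22% of the 12839.

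**Figure D2:**
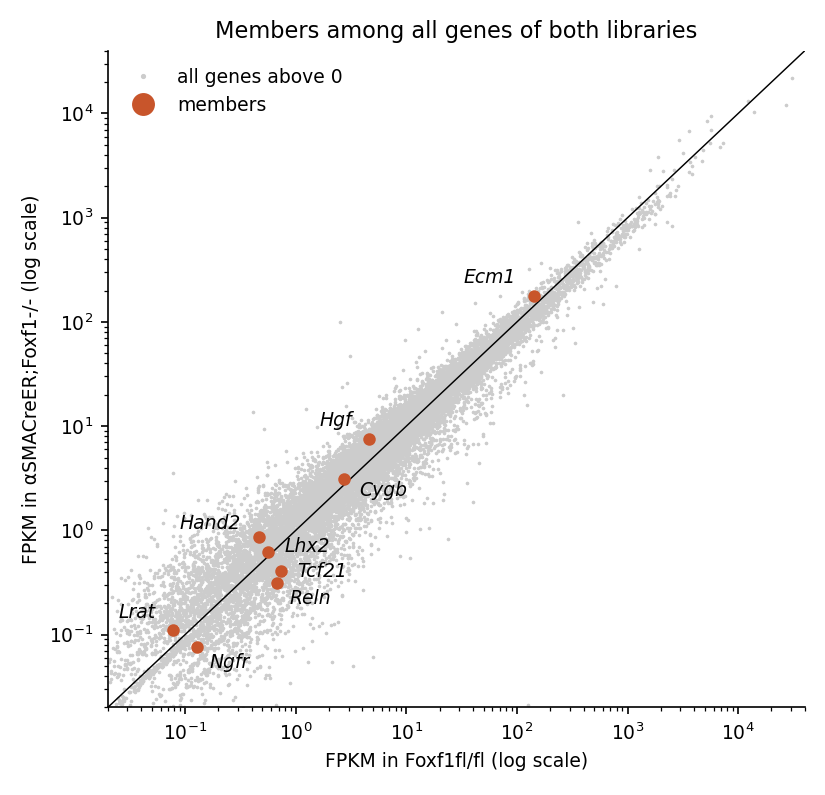
FPKM in the αSMACreER;Foxf1-/- library against FPKM in the Foxf1fl/fl library (both log scale) for all genes above 0 in both (grey) and the 9 identity genes (orange). The line marks equal values, Ecm1 lies far up the diagonal, and Hgf and Hand2 lie above the line while Reln, Tcf21 and Ngfr lie below it.

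Lrat, the gene of retinol esterification, was near the lower end of detection in both libraries. Lrat (ENSMUSG00000028003, chromosome 3 from 82892579 to 82903973 of GRCm38, minus strand, 2 exons) had an FPKM of 0.0778 in control cells and 0.111 in knockout cells. These values rest on about 4 and 6 reads. The log2 difference of 0.23 had a counting interval from -1.72 to 2.63, so neither a 2-fold fall nor a 2-fold rise of Lrat was detectable at this depth. Lrat stood at percentile 5.20 and 8.85 of the genes above 0. Its level was 1843 times below that of Ecm1 in control cells and 1614 times below in knockout cells.

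Genes of retinoid handling ranged from listed at 0 (Crabp1, in both libraries) to far above Lrat. Of the 31 listed genes of retinoid uptake, droplet storage and retinoic acid signalling, 24 had a mean FPKM of at least 1. Their median log2 difference was -0.10, against 0.0057 over all genes at that level. Plin2, a coat protein of lipid droplets in many cell types, had an FPKM of 765 and 859. In knockout cells 1 gene of the list was at least 1.5-fold higher, Aldh1a3, an enzyme that makes retinoic acid, with 1.86 and 4.43 (log2 difference 1.19, counting interval 0.79 to 1.68). At least 1.5-fold lower were 5 genes. Rbp4, the retinol carrier that hepatocytes secrete, had 210 and 66.4, a log2 difference of -1.69. Plin5, a droplet protein of oxidative tissues, had -1.08, and Cyp26a1, which degrades retinoic acid, had -0.81. The remaining 2 were Dhrs4 (-0.75) and Crabp2 (-0.66). Hepatocyte markers moved in the same direction as Rbp4: all 12 listed were at least 1.5-fold lower, none was at 0 in either library, and their summed FPKM was 4718 in control and 2007 in knockout cells. Their part in the values of the retinoid list was not tested.

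The 3 transcription factors were all detected, at levels from 0.405 to 0.863 FPKM, and none of them could be separated between the libraries. Tcf21 (ENSMUSG00000045680, chromosome 10 from 22817281 to 22820174, minus strand) had 0.728 in control and 0.405 in knockout cells, about 11 and 7 reads. Its log2 difference of -0.73 had a counting interval from -2.49 to 0.62. Lhx2 (ENSMUSG00000000247, chromosome 2 from 38339281 to 38369733, plus strand) had 0.565 and 0.618, about 15 and 18 reads, a log2 difference of 0.088 (counting interval -1.04 to 1.13). On the median Lhx2 transcript instead of the longest, the reads would be about 3 and 4 and the interval -2.38 to 2.96. Hand2 (ENSMUSG00000038193, chromosome 8 from 57320983 to 57324633, plus strand) had 0.466 and 0.863, about 10 and 21 reads, a log2 difference of 0.74 (counting interval -0.31 to 2.09). Tcf21 and Hand2 had differences of similar size and opposite sign, and each was within counting error. In both libraries the counting intervals of the 3 factors overlapped, so their order of level was not resolved.

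Of 18 other transcription factors of the stellate lineage, 12 had a mean FPKM of at least 1, with a median log2 difference of 0.32. With equal-sum scaling this median was 0.52, and with the length trend removed it was 0.042. Some of the rest were below the 3 members, such as Foxf2 with 0.194 and 0.0504 and Heyl with 0.112 and 0.165. Gata4, a factor of the quiescent state, had 9.68 and 9.79. The share of Gata4, or of the other factors of this list, that came from stellate cells was not tested. Of the 12, Mef2c, a MADS-box factor, was the 1 gene past 1.5-fold, higher in knockout cells with 1.96 and 3.10 (log2 difference 0.61). Among the 12, 0 were lower. Larger differences stood below a mean of 1 FPKM. Prrx1 had 0.363 and 1.21 (1.48, counting interval 1.01 to 2.42), and Ebf1 had 0.437 and 1.18 (1.23, 0.73 to 2.11). Tbx3 was lower in knockout cells, with 0.947 and 0.160 (-2.03, counting interval -3.74 to -1.46) on about 44 and 9 reads. Wt1, which is on this list, is also a mesothelial gene and had 6.41 and 8.27, and the mesothelial markers Msln and Upk1b had 11.4 and 13.1 and 6.56 and 7.94.

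Ngfr and Reln both had lower values in the knockout library, with very different depth behind them. Ngfr (ENSMUSG00000000120, chromosome 11 from 95568818 to 95587735, minus strand, 6 exons) had an FPKM of 0.128 and 0.0762, about 4 and 3 reads. The counting interval of its log2 difference of -0.38 ran from -3.41 to 1.92. Reln (ENSMUSG00000042453, chromosome 5 from 21884454 to 22344702, minus strand, up to 65 exons) had 0.683 in control cells and 0.313 in knockout cells, a level 2.22-fold lower. The log2 difference of Reln was -0.94 (counting interval -1.72 to -0.57), from about 77 and 41 reads on its transcript of 11699 bases. If the reads were placed on the median Reln transcript instead of the longest, they would be about 16 and 8, and the interval would run from -2.66 to 0.080.
The direction of the Reln difference ran against that of long transcripts in general. In its group of transcript length the median log2 difference of all genes was 0.49, and with this trend removed Reln had -1.43. Among the 6 genes below an FPKM of 1, Reln had more reads than any other single gene in both libraries. It had more than the rest together in control cells only. Together the 6 had about 121 reads in control and 96 in knockout cells, and without Reln about 44 and 55. Reln is also expressed by lymphatic endothelium. In these libraries Prox1, a factor of that endothelium, had 0.573 and 0.737. Pdpn had 58.1 and 73.9, and Lyve1, which sinusoidal endothelium shares, had 66.1 and 77.3. The summed FPKM of the 7 lymphatic markers, Reln among them, was 159 and 193, and none was at 0. Nearly all of this sum came from Pdpn, Lyve1 and Flt4 (33.5 and 39.8). The others were near the floor, among them Ccl21a with 0.277 and 0.683 and Mmrn1 with 0.212 and 0.240. The share of Reln that came from lymphatic endothelium was not tested.

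The reelin and neurotrophin pathways were read around these genes. Of 9 genes of reelin signalling, 7 had a mean FPKM of at least 1, all were above 0 on the log2 scale (0.11 to 0.56, median 0.38), and 0 passed 1.5-fold in either direction. With equal-sum scaling this median was 0.59 and with the length trend removed 0.15. The reelin receptor gene Vldlr had 0.531 and 1.18, with a mean below 1. Of 14 genes of neurotrophin signalling, 6 had a mean FPKM of at least 1. Bex3, whose product binds the p75 receptor, had 44.1 and 28.5 (-0.66), and Sort1, which encodes the co-receptor sortilin, had 5.33 and 8.21 (0.59). Ngfr also marks Schwann cells, whose defining gene Sox10 was at 0 in both libraries. Of the 8 Schwann and neural markers 4 were at 0 in control and 3 in knockout cells, and their summed FPKM was 6.63 and 10.6.

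Among the 3 members that reached the level, Hgf was the 1 that passed 1.5-fold. Hgf (ENSMUSG00000028864, chromosome 5 from 16553495 to 16620152, plus strand, up to 19 exons), whose product is the ligand of the receptor MET and a mitogen for hepatocytes, had an FPKM of 4.64 in control cells and 7.60 in knockout cells. This is a 1.61-fold higher level, with a log2 difference of 0.67 (counting interval 0.40 to 0.98) on about 149 and 281 reads. The fold interval of 1.32 to 1.98 includes 1.5. Hgf moved from percentile 52.5 to 62.0 of the genes above 0. Its value stayed at 0.586 or above with each pseudocount and scaling tried and with the length trend removed, barely above the 0.585 that 1.5-fold corresponds to. The forkhead core in its promoter shown above was not linked to this difference by any measurement here.
None of the measured genes that activate or transmit the HGF signal was higher by 1.5-fold. All 14 measured genes of the list had a mean FPKM of at least 1, 0 were at least 1.5-fold higher, and 4 were lower, with a median log2 difference of -0.061. Met, the receptor, had 15.2 and 13.6 (-0.18). The 4 lower genes act before the receptor. Hgfac, the HGF activator protease, had 6.08 and 2.52 (-1.26), F12, coagulation factor XII, had 18.5 and 5.49 (-1.76), and Hpn, the membrane protease hepsin, had 30.8 and 14.8 (-1.07). Spint2, an inhibitor of such proteases, had 44.9 and 27.4 (-0.74). Hgfac, F12 and Hpn are made chiefly by hepatocytes, whose marker Alb had 2292 and 912, and the part of hepatocyte RNA in these values was not tested. Hgf is also made by sinusoidal endothelium. Pecam1 had 93.3 and 96.6, Cdh5 98.4 and 113, and Kdr 40.0 and 47.3. The 12 endothelial markers had a median log2 difference of 0.19, 1 was at least 1.5-fold higher, and their summed FPKM was 1366 and 1306.

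**Figure D3:**
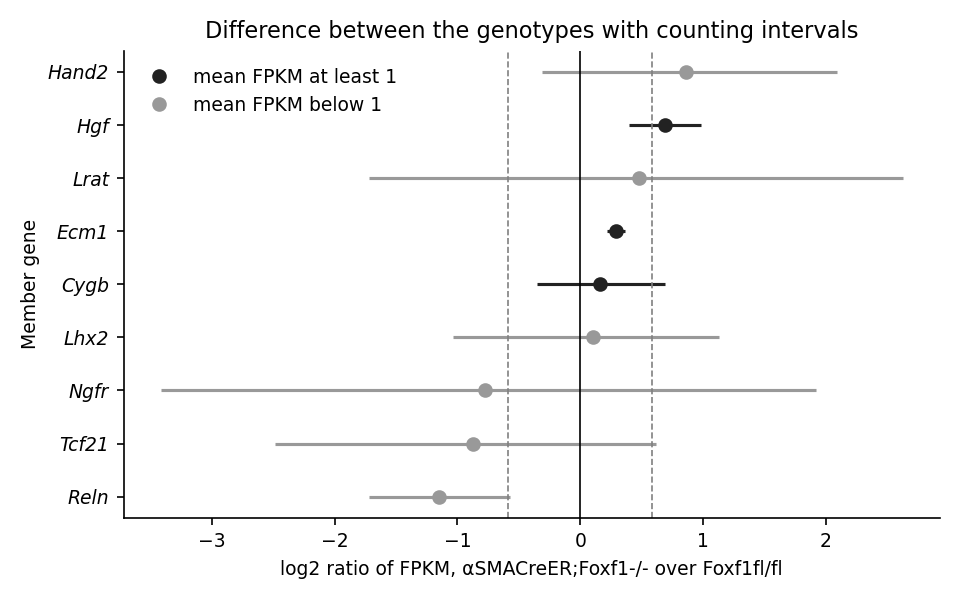
Log2 ratio of FPKM, αSMACreER;Foxf1-/- over Foxf1fl/fl after median-ratio scaling, for the 9 genes, with approximate 95% counting intervals as bars. Dashed lines mark 1.5-fold, black points have a mean FPKM of at least 1, and the intervals of Hgf, Ecm1 and Reln do not reach 0.

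Cygb was detected at a similar level in both libraries. Cygb (ENSMUSG00000020810, chromosome 11 from 116645595 to 116654313, minus strand, 4 exons) had 2.74 in control and 3.12 in knockout cells, about 57 and 75 reads. Its log2 difference of 0.15 had a counting interval from -0.35 to 0.69, so counting error allows a level up to 1.61-fold higher. The annotation places Prcd on the opposite strand with 201 exonic bases in common, and Prcd had 1.44 and 0.867, so reads from these bases could belong to either gene where the counting did not use strand. Of 14 listed genes of globin, nitric oxide and redox function, 10 had a mean FPKM of at least 1, with a median log2 difference of -0.34, which was 0.13 over all 14 without the filter and -0.14 with equal-sum scaling. Among them Nos2, the inducible nitric oxide synthase, was at least 1.5-fold higher (4.02 and 7.48, log2 difference 0.85), and Cyb5a (-0.76) and Sod1 (-0.61) were lower. Cyb5r3 and Cyb5a, which can reduce cytoglobin, had 77.8 and 86.9, and 369 and 221. The muscle globin gene Mb had 0.241 and 0.695, on about 2 and 7 reads.

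Ecm1 stood apart from the other 8 genes in level. Ecm1 (ENSMUSG00000028108, chromosome 3 from 95734147 to 95739569, minus strand, up to 11 exons), whose secreted product binds matrix proteins and is known to keep transforming growth factor β latent in the liver, had an FPKM of 143 in control cells and 178 in knockout cells. It was at percentile 96.0 and 97.3 of the genes above 0 and 30.9 and 23.5 times above Hgf, the next member. The log2 difference of 0.29 (1.22-fold higher) had a narrow counting interval, 0.22 to 0.37, on about 2393 and 3430 reads, and did not reach 1.5-fold. On the median Ecm1 transcript instead of the longest, the reads would be about 897 and 1285 and the interval 0.17 to 0.41. Transcripts of the length of Ecm1 were lower in knockout cells in general, with a median of -0.21, and with that trend removed Ecm1 had 0.50.
Ecm1 is not restricted to HSCs in the liver and is known from macrophages too. The Kupffer cell marker Clec4f had 1117 and 753, Adgre1 162 and 165, and Cd68 646 and 679. The 12 macrophage markers had a summed FPKM of 13357 and 11042 and a median log2 difference of -0.34, none was at 0, and 1 was at least 1.5-fold lower. The 12 hepatocyte markers had a summed FPKM of 4718 and 2007. The share of Ecm1 that came from hepatocytes, macrophages or any other 1 cell type was not tested. Of 14 genes that control latent transforming growth factor β, 12 had a mean FPKM of at least 1. Tgfb1 had 237 and 204 (-0.24), Tgfb2 was the 1 gene at least 1.5-fold higher (1.67 and 2.73, log2 difference 0.65), 0 were lower, and the list median was -0.0098.

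The order of the identity genes by level was Ecm1, Hgf and Cygb in both libraries, with counting intervals that did not overlap, followed by 4 genes from 0.313 to 0.863 FPKM and by Lrat and Ngfr at 0.128 or below. Within the group of 4 the order changed. Tcf21 and Reln led in control and Hand2 and Lhx2 in knockout cells, but Reln was the only 1 of the 4 whose intervals in the 2 libraries did not overlap. Lrat and Ngfr could not be ordered in either library. Over the 2 libraries, a pattern is 1 level and 1 difference, and of 236 listed genes those nearest to Hgf were Sox9 and Krt7 (distance 0.13 and 0.16 in log2 units), those nearest to Cygb were Myl9 and Adamtsl2 (0.095 and 0.24), and those nearest to Ecm1 were Grb2 and Dcn (0.18 and 0.19).

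Other markers of stellate cells and fibroblasts were read for comparison. Des, the intermediate filament desmin, had an FPKM of 1.70 and 3.29, Pdgfrb had 1.03 and 1.43, and Gfap, a marker of quiescent stellate cells in rodents, was listed at 0 in both libraries. Of 25 such markers outside the 9, 17 had a mean FPKM of at least 1, with a median log2 difference of 0.33. At least 1.5-fold higher were 5 of them (Des, Pdgfra, Vipr1, Prelp and Ednrb, with log2 differences from 0.81 to 1.17) and 1 was lower (Kcnj8, -0.77). Of all genes at that level 12.9% were higher and 13.2% lower. Agtr1a, with a mean of 0.958 and so just below the level, had 1.63 and 0.291 (-2.16, counting interval -3.85 to -1.22). Bmp5, far below it, went the other way, with 0 and 0.194 on about 0 and 8 reads. Ednrb, the endothelin B receptor, had 7.11 and 16.5, and Pdgfra had 2.95 and 5.40. Of 16 activated myofibroblast genes, 15 reached the level, with a median of 0.27. Of these 1 was at least 1.5-fold higher (Lox, 6.67 and 10.4) and 1 lower (Tpm2, -0.66). The contractile genes Acta2, Tagln and Myl9 had 7.77 and 5.65, 5.51 and 4.31, and 2.85 and 2.95. The collagen genes Col1a1, Col1a2 and Col3a1 had log2 differences of 0.53, 0.54 and 0.49. Of 12 portal fibroblast genes, 11 reached it, with a median of 0.21, and Thy1, Eln and Fbln2 had 13.1 and 11.8, 3.51 and 4.81, and 19.6 and 25.6. All 7 measured mesothelial genes reached it, with a median of 0.17. Of 7 cholangiocyte genes 6 reached it with a median of -0.092, and of 8 neutrophil genes all reached it with a median of -1.54.

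**Figure D4:**
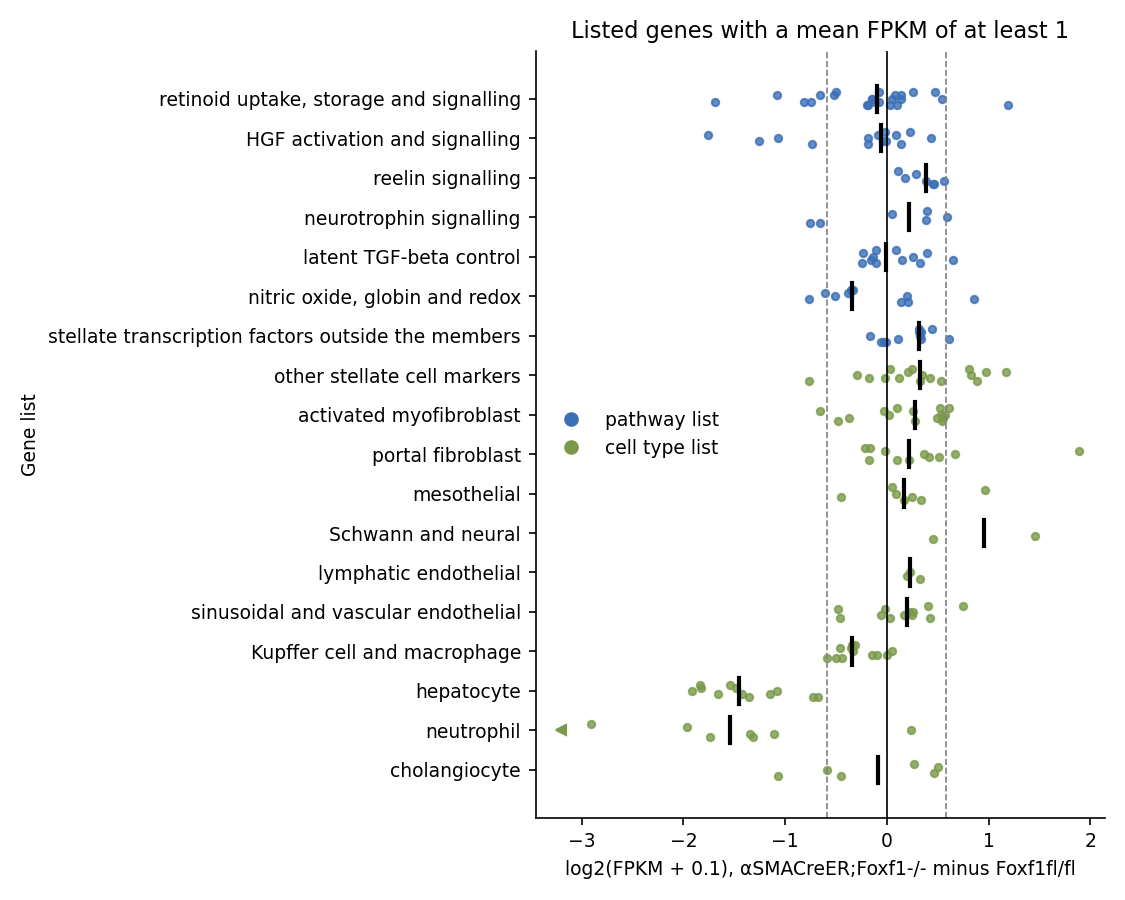
Difference on the log2(FPKM + 0.1) scale, knockout minus control, for listed genes that reached a mean of 1 FPKM, pathway lists in blue and cell type lists in green, with the list median as a black bar and 1.5-fold as dashed lines. The hepatocyte and neutrophil medians lie at -1.45 and -1.54 and the other cell type medians at -0.34 or above, and the triangle marks Ly6g, which lies beyond the axis at -6.63.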

How the data were processed

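RNA of adherent liver cells was pooled within each genotype, and 1 library per genotype was sequenced as single-end reads of 75 bases. The authors ran a TopHat and Cufflinks pipeline (mm10, per the labels). The deposited values are FPKM, 1 per Ensembl gene, with a status. Versions were not given in the sources used here. FPKM values are not counts, so no count-based test was run, and the DESeq step of the study belongs to another quantification. Symbols came from GENCODE M21 (GRCm38), which named 36490 of 38320 entries (95.2%), and all coordinates are its own. Where a symbol was repeated, the higher entry was used, and 3 entries with a status other than OK were left out.

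Values were scaled by the median ratio and compared at a pseudocount of 0.1, a mean FPKM of at least 1 and 1.5-fold. Reads were estimated with an assumed fragment length of 200 bases. The procedure was tested on simulated data. The members and lists were chosen with earlier results of these data known. From each pathway list the first gene and up to 4 genes with the largest differences past 1.5-fold were named, and from each cell type list the first 3. Other named genes (Plin2, Vldlr, Wt1, Cyb5r3, Crabp1, Foxf2, Heyl, Prrx1, Ebf1, Tbx3, Pdgfra, Ednrb, Agtr1a, Bmp5, Col1a1, Col1a2, Col3a1, Ly6g, Flt4, Ccl21a, Mmrn1 and those behind counts of 5 or fewer), and the motifs TATAAA and GGGCGG, were chosen after values were seen. Klkb1 and Muc16 are listed but were not analysed here, and the values of some other listed genes are not reported here. Bex3 was matched through its older symbol. Alternatives changed the pseudocount, scaling, filter, threshold, length trend, repeated symbols, depth and transcript length. Scripts ran under Python 3.11.15 (scipy 1.17.1, pandas 2.3.3, numpy 2.4.6; figures, matplotlib 3.10.9). Promoters of chromosome 18 were left out.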

Additional observations from a re-analysis of the deposited data

How the results depend on the processing

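No paired analysis was possible because only 1 library per genotype was sequenced, and for the same reason no library could be left out. The sign of the difference was kept by 8 of the 9 genes under all 8 alternatives of pseudocount, scaling, length trend and repeated symbols, and Lrat came to -0.017 with the length trend removed. Of these alternatives only scaling and the length trend could turn a sign. The pseudocount is added to both values, and each member has 1 entry. The lowest and highest values were 0.586 and 0.88 for Hgf, 0.29 and 0.50 for Ecm1, and -1.43 and -0.36 for Reln. Without a filter on low values 2 members were at least 1.5-fold higher (Hgf and Hand2) and 2 lower (Reln and Tcf21), against 1 and 0, and at 2-fold 0 were higher. The median difference over the members at the filter, 0.29 for 3 genes, was 0.49 with equal-sum scaling, 0.15 over all 9 genes without a filter, 0.48 at a mean FPKM of at least 5 (2 genes) and 0.50 with the length trend removed. Of the 85 pathway genes at a mean FPKM of at least 1, 5 (5.9%) passed 1.5-fold upward and 13 (15.3%) downward, against 12.9% and 13.2% of all genes. The number higher was 2 with a pseudocount of 1, 16 with equal-sum scaling and 12 without a filter. It was 2 at a mean FPKM of at least 5, 1 at 2-fold and 2 with the length trend removed. The number lower was 6 with equal-sum scaling and 5 at 2-fold. The shares of all genes were 22.2% higher and 8.73% lower with equal-sum scaling. Without a filter they were 10.4% and 8.63%, and at 2-fold 4.49% and 6.22%. Equal-sum scaling turned the sign of the list median for the retinoid (0.10), HGF (0.14) and latent transforming growth factor β (0.19) lists. With median transcript lengths the lower bound for Reln was -2.66, and its interval then included 0. The depth of about 10 M reads stated in the labels left every member's interval on the same side of 0. Beyond what fewer genes or another threshold imply by construction, the cause was not tested.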

Other observations

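Ratios taken inside each library do not depend on the scaling between libraries. Relative to Dcn, which encodes the proteoglycan decorin of fibroblasts and stellate cells, Hgf had a ratio of 0.0366 in control and 0.0408 in knockout cells, a log2 change of 0.16, and relative to the stellate marker Des it had 2.72 and 2.31, a change of -0.24. Ecm1 relative to Dcn had 1.13 and 0.959 (-0.24), and Cygb had 0.0217 and 0.0168 (-0.37). Reln relative to Dcn changed by -1.68. Against Col1a2 the values were close to those against Dcn, at 0.15 for Hgf, -0.25 for Ecm1, -0.38 for Cygb and -1.69 for Reln. Against Acta2 they were 1.17 for Hgf, 0.78 for Ecm1, 0.64 for Cygb and -0.66 for Reln. Against the hepatocyte gene Alb, which was itself lower in the knockout library, Reln had 0.20. The trend with transcript length was not removed from these ratios. Ecm1 (1900 bases) and Cygb (2331) have shorter transcripts than Dcn (4692) and Col1a2 (5348), and Reln (11699) has a longer one. The part of that trend in these changes was not tested.

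Other annotated genes share exonic bases with members. The overlap was 461 bases for Hand2 with Hand2os1 on the opposite strand, 484 bases for Hgf with Gm43489 on the same strand and 246 bases for Reln with Gm10475 on the opposite strand. Gm10475 had an FPKM of 0 in control and 0.0585 in knockout cells, and the other 2 were not analysed here.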
